A study of Mus musculus with 4 samples.

Results

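Cycling leukocytes of the mouse liver were taken as cells whose transcripts of 5 cell cycle genes, Mki67, Top2a, Birc5, Cdk1 and Ube2c, summed to 2 or more unique molecular identifiers (UMIs, 1 per captured transcript). They made up 472 of the 20039 cell barcodes kept from 4 single-cell RNA libraries, or 2.36%. Because the cells were selected on these 5 genes, the levels of these genes are a description of the selection and not a finding. A barcode entered if it had 200 or more genes and if mitochondrial transcripts were below 10% of its UMIs. Each cell was given the lineage whose gene had the most UMIs among Cd3e (T cells), Cd79a (B cells), Ncr1 (NK cells or ILC1), Lyz2 (monocytes or macrophages), Siglech (plasmacytoid dendritic cells, pDC) and Jchain (plasma cells). Cells in which the leading genes tied, or which had none of the 6, were kept as 2 classes of their own.

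The study asked which liver leukocytes express IL-22 before and 12 h after cancer cells reach the liver. All mice carried the reporter allele IL-22sgBFP, in which blue fluorescent protein (BFP) marks cells expressing Il22, and the 12 h mice had received MC38 cells, a mouse colon carcinoma line, in 250 µl PBS by injection into the spleen. Livers were digested with collagenase and DNase, leukocytes were enriched on Percoll, and CD45+ cells were sorted into a BFP-negative and a BFP-positive fraction. The 4 groups were therefore IL-22-negative at 0 h, meaning before injection, IL-22-negative at 12 h, IL-22-positive at 0 h and IL-22-positive at 12 h, each with 1 library. No group received PBS alone, and the labels give neither the age nor the number of mice per library. A difference between times or fractions therefore compares 2 libraries, has no replicate check and carries no p-value. Intervals in parentheses are 95% intervals that cover counting error only, Clopper-Pearson for shares and exact Poisson for levels and ratios.

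A dividing cell passes through G1, copies its DNA in S phase, and separates the copies in mitosis after G2. Topoisomerase IIα (Top2a) untangles the copied chromosomes, Ki-67 (Mki67) coats them in mitosis, survivin (Birc5) guides their attachment to the spindle, Cdk1 is the kinase that drives entry into mitosis, and Ube2c is the ubiquitin-conjugating enzyme with which the anaphase-promoting complex ends it. Transcripts of all 5 peak in G2 and mitosis, so the sum is most sensitive to those phases. In a resting adult liver most lymphocytes are not dividing, whereas plasmablasts and recently activated T and NK cells can divide.

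Depth differed between the libraries. The IL-22-negative libraries kept 8301 of 8555 and 10099 of 10231 barcodes with medians of 1829 and 2230 UMIs per cell at 0 h and 12 h, and the IL-22-positive libraries kept 289 of 300 and 1350 of 1378 with medians of 3387 and 3726. The 2 IL-22-negative libraries shared 110 barcode sequences and other pairs shared 0 to 13, and in no shared pair were both cells cycling. Ptprc, which encodes CD45, had a UMI in 132 of 180 cycling cells at 0 h and 226 of 286 at 12 h in the IL-22-negative fraction, against 65.8% and 62.2% of the other cells. These cycling cells were deeper, with medians of 5287.5 and 6396.5 UMIs, so the Ptprc shares do not compare cells at equal depth. Krt8, Krt19, Krt20, Cldn4 and Cldn7, genes of epithelial cells such as the injected line, had no UMI in any of these cycling cells. They are part of a longer epithelial list. Of its other members, Epcam did have UMIs in cycling plasma cells, as given below, and Krt18 and Cdh1 are not reported here.

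Part of the cycling cells had UMIs of several of the 5 genes. At 0 h 74 of the 180 IL-22-negative cycling cells had UMIs of 3 or more of the 5 genes, and at 12 h 167 of 286. Top2a was seen in 119 and 186 of these cells, Mki67 in 118 and 201, Birc5 in 82 and 201, Ube2c in 92 and 189, and Cdk1, the least often detected, in 52 and 125. Of all Birc5 UMIs in the IL-22-negative library at 12 h, 97.1% lay in the cycling cells, against 81.0% of Top2a UMIs. Top2a and Mki67 thus also appeared as single UMIs in cells outside the selection more often than Birc5 did.

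The promoters of 4 of these genes carry the 2 short motifs known from mitotic genes, and they are shown because the 5 genes define the cells. The motifs searched were TTTGAA, a core of the cell cycle homology region through which such genes are held silent outside G2, and CCAAT, the NF-Y box, each on both strands. The sequences are the 200 bases before the transcription start, 5′ to 3′ on the gene's strand, from the RefSeq promoter table (GRCm38.p6). They lie at chr7:135716380-135716579 (Mki67, minus strand), chr11:99024190-99024389 (Top2a, minus strand), chr10:69352913-69353112 (Cdk1, minus strand) and chr2:164769729-164769928 (Ube2c, plus strand). Capitals mark TTTGAA and CCAAT or their reverse complements, TTCAAA and ATTGG.
Mki67: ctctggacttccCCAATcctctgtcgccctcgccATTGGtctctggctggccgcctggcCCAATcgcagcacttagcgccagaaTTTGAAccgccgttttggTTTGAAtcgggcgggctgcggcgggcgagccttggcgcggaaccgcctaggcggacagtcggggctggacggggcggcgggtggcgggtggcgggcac
Top2a: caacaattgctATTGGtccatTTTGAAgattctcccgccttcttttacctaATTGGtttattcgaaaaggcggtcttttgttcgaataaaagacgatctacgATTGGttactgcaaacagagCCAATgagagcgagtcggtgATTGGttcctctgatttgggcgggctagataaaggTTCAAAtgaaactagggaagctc
Cdk1: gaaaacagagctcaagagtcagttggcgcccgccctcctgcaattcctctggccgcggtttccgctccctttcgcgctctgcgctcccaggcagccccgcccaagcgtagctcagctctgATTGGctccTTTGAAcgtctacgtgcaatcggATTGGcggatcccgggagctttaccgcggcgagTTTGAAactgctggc
Ube2c: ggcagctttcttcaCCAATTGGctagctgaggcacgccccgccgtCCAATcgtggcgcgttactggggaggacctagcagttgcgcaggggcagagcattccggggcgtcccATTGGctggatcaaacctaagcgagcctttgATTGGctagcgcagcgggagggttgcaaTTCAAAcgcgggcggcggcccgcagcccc
In Cdk1 the 2 matches to TTTGAA began 71 and 15 bases before the start, in Mki67 116 and 98, in Top2a 179 and 23, and in Ube2c the single match began 29 bases before it. Within windows of 300 bases, 250 before to 50 after the start, TTTGAA was found in 4 of the 5 genes and in 17.9% of all 32851 promoter windows, and both motifs together in 4 of 5 and 6.95%. No match to either motif lay in the Birc5 window. A list of 25 other G2 and mitosis genes had 20 in the table, and 13 of those 20 windows (65.0%) held both motifs. A list of 25 G1/S and replication genes had 22 in the table, with 2 of 27 windows (7.41%) holding both. No TTTGAA match overlapped a CCAAT match, in Ube2c 2 CCAAT matches on opposite strands overlapped, and a match describes the sequence only.

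How firmly a cell counted as cycling depended on its sum. Of the IL-22-negative cycling cells, 63 at 0 h and 62 at 12 h sat exactly at the threshold of 2 UMIs, and 495 and 448 cells sat just below it with 1 UMI. The G2 and mitosis list, which leaves out the 5 selecting genes, had 2.88, 3.13 and 4.80 UMIs per 10000 in cells with 0, 1 and 2 UMIs at 0 h. It had 11.2 in cells with 3 to 9 and 43.2 in cells with 10 or more. At 12 h the same classes had 2.20, 2.64, 3.89, 14.4 and 43.6. By this level cells at exactly 2 UMIs lay nearer to the cells with 1 UMI than to those with 3 to 9. At 0 h and 12 h, 27.0% and 30.6% of them had 3 or more UMIs of the list, against 8.28% and 11.6% of the cells with 1 UMI and 100% of the cells with 10 or more. The G1/S list stepped up earlier, from 5.13 per 10000 at 1 UMI to 11.0 at 2 UMIs at 0 h and from 4.64 to 7.26 at 12 h. The list genes share the selection's contrast, so these values describe the threshold.

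**Figure D1:**
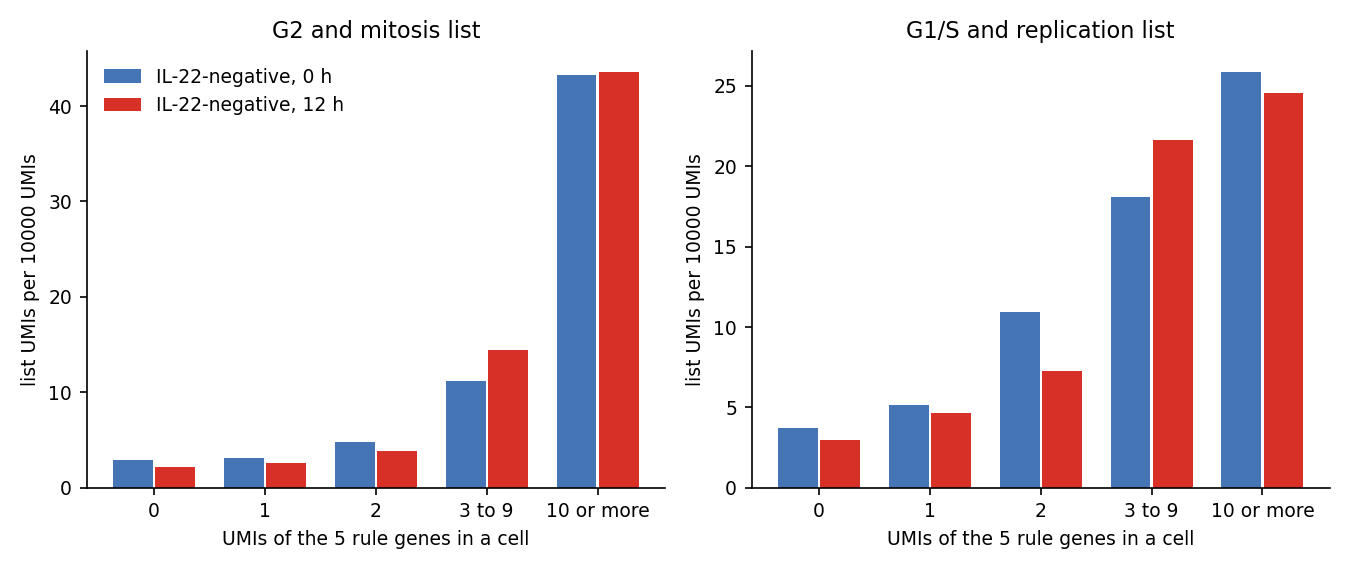
UMIs of the G2 and mitosis list (left) and the G1/S and replication list (right) per 10000 UMIs, in IL-22-negative cells grouped by their UMIs of the 5 selecting genes, at 0 h (blue) and 12 h (red), 1 library each. Cells with 2 UMIs sit at 4.80 and 3.89 for the G2 and mitosis list, near the 3.13 and 2.64 of cells with 1, and cells with 10 or more reach 43.2 and 43.6.

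Depth moved with the selection. Cycling cells had a median of 5287.5 UMIs at 0 h and 6396.5 at 12 h, above the medians of all kept cells. Among T cells with 8000 or more UMIs, 21 of 25 at 0 h and 38 of 58 at 12 h were cycling, while among T cells with 1000 to 2000 UMIs 5 of 503 and 7 of 913 were. Dividing cells hold more RNA, and a deeper cell also passes a fixed count more easily; how much each contributes was not tested. Shares are therefore given also with each cell thinned at random to 1000 UMIs, which leaves out cells with fewer.

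In the IL-22-negative fraction, 180 of 8301 cells were cycling at 0 h, or 2.17% (1.87 to 2.51), and 286 of 10099 at 12 h, or 2.83% (2.52 to 3.17). The ratio of the shares was 1.31 (1.08 to 1.58). Among cells with at least 500 genes it was 1.20 (0.991 to 1.46), an interval that includes 1. After thinning to 1000 UMIs the shares were 65 of 6456 and 139 of 9379, with a ratio of 1.47 (1.09 to 2.01). Thinning also removes lineage genes, and 25 of those 65 and 71 of those 139 cells had none of the 6, so shares by lineage after thinning rest on few cells. The difference was larger among the cells with the strongest signal. Cells with 10 or more UMIs of the 5 genes were 49 at 0 h (0.590%, 0.437 to 0.780) and 124 at 12 h (1.23%, 1.02 to 1.46), a ratio of 2.08 (1.48 to 2.96). Counting every cell with 1 or more UMIs turned the direction, with a ratio of 0.894.

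T cells were the most numerous dividing lineage at both times. They were 72 of the 180 cycling cells at 0 h (interval of the share 32.8% to 47.6%) and 139 of 286 at 12 h (48.6%, 42.7 to 54.6), while they made up 26.1% and 32.4% of all kept cells. Of the T cells, 72 of 2168 were cycling at 0 h (3.32%, 2.61 to 4.16) and 139 of 3277 at 12 h (4.24%, 3.58 to 4.99). The ratio was 1.28 (0.954 to 1.72), so the intervals did not separate the 2 libraries. Restricted to 10 or more UMIs, 29 and 70 T cells remained, 1.34% and 2.14%, with a ratio of 1.60 (1.02 to 2.55).

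At the threshold of 2 UMIs, plasma cells had the largest cycling share of any lineage gene's cells. At 10 or more UMIs this did not hold at 0 h, with 1.21% against 1.34% of T cells and 1.75% of NK cells or ILC1. It held at 12 h, with 6.32% against 2.14% and 1.55%. With only 1 of the 6 lineage genes detected the shares were 1.85%, 2.94% and 3.68% at 0 h and 5.10%, 4.09% and 2.67% at 12 h. Of the cells led by Jchain, the joining chain of secreted IgA and IgM, 31 of 413 were cycling at 0 h (7.51%, 5.16 to 10.5) and 33 of 253 at 12 h (13.0%, 9.15 to 17.8), a ratio of 1.74 (1.03 to 2.93). The Jchain lineage was not the same kind of cell in both libraries. At 0 h only 86 of its 413 cells (20.8%) had 10 or more Jchain UMIs, and at 12 h 140 of 253 (55.3%). Mzb1, a chaperone of plasma cells, was found in 85 of those 86 and 139 of those 140, but in only 33 of 327 and 0 of 113 of the cells with fewer Jchain UMIs, whose median depth was 895 and 1713 UMIs. Among cells with 10 or more Jchain UMIs, 23 of 86 were cycling at 0 h (26.7%, 17.8 to 37.4) and 28 of 140 at 12 h (interval of the share 13.7% to 27.6%). That ratio was 0.748 (0.415 to 1.36), in the other direction, and its interval includes 1. Cells with 10 or more Jchain UMIs had median depths of 11769 UMIs at 0 h and 12106.5 at 12 h. Of the same cells, 4 of 86 and 14 of 140 had 10 or more UMIs of the 5 genes. This cut was added after the data had been seen. With every cell thinned to 1000 UMIs, 7 of 225 Jchain cells were cycling at 0 h (3.11%) and 8 of 234 at 12 h (3.42%), a ratio of 1.1 (0.348 to 3.56).

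NK cells or ILC1 divided about as often as T cells, with 12 of 399 at 0 h (3.01%, 1.56 to 5.19) and 22 of 710 at 12 h (3.10%, 1.95 to 4.65), a ratio of 1.03 (0.488 to 2.28). B cells had the lowest share of the lymphocyte lineages, with 27 of 2619 (1.03%, 0.680 to 1.5) and 32 of 2340 (1.37%, 0.937 to 1.93). B cells with a marker of naive cells were also counted separately, and whether they were resting was not tested. Among cells led by Cd79a with a UMI of Ighd, the IgD heavy chain of naive B cells, 4 of 616 at 0 h (0.649%, 0.177 to 1.65) and 6 of 564 at 12 h (1.06%, 0.391 to 2.30) had 2 or more UMIs of the 5 genes, at median depths of 1782 and 1788. The shares of the whole B lineage, at medians of 1729 and 1706, lay within the intervals of these cells, which are part of it. Of its cycling cells, 15 of 27 at 0 h and 11 of 32 at 12 h were exactly at the threshold. Its cells with 10 or more UMIs numbered 5 and 12.

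Monocytes or macrophages had 4 of 447 cycling cells at 0 h (0.895%, 0.244 to 2.28) and 21 of 1174 at 12 h (1.79%, 1.11 to 2.72), at medians of 2478 and 4737.5 UMIs for the lineage. At 1000 UMIs these were 2 of 303 and 6 of 988, or 0.660% and 0.607%. The ratio was 2.0 (0.674 to 8.01) before thinning, and at equal depth the shares did not keep that order. Plasmacytoid dendritic cells had 5 of 358 and 8 of 491. Cells with tied lineage genes had 15 of 732 and 12 of 536, and cells with none of the 6 genes had 14 of 1165 and 19 of 1318.

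**Figure D2:**
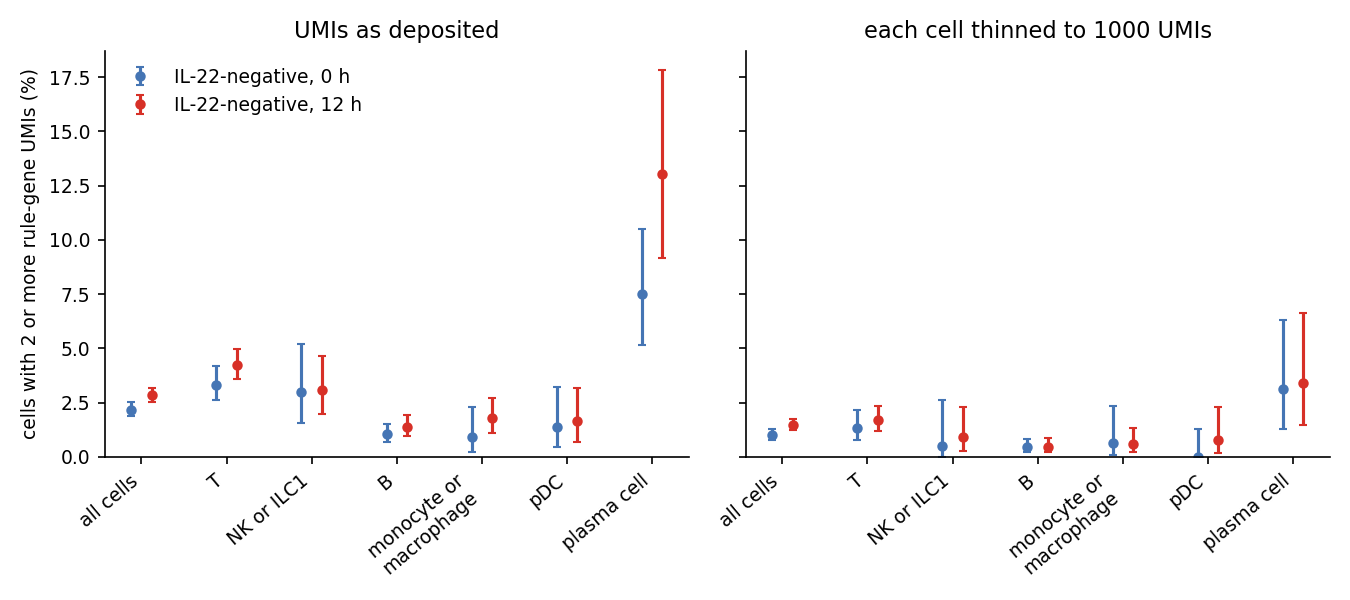
Share of IL-22-negative cells with 2 or more UMIs of the 5 selecting genes, in percent, by lineage at 0 h (blue) and 12 h (red), as deposited (left) and with each cell thinned to 1000 UMIs (right); points are 1 library each and bars are 95% Clopper-Pearson intervals. Plasma cells stand highest in both panels, at 7.51% and 13.0% on the left, and after thinning the intervals of the 2 times overlap in all 6 lineages.

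The lineages were checked against marker lists of 8 genes each. Of the T cells by Cd3e, 70 of 72 cycling cells at 0 h and 136 of 139 at 12 h also had T genes as their leading list. For plasma cells this held for 25 of 31 and 29 of 33, for NK cells or ILC1 for 11 of 12 and 19 of 22, and for monocytes or macrophages for 2 of 4 and 17 of 21. B cells were less clear, with 22 of 27 and 24 of 32, and 6 of the 32 at 12 h led with T genes. UMIs of 2 or more of the 6 lineage genes were present in 47.2% and 38.5% of cycling cells, against 33.2% and 25.8% of other cells. The doublet caller Scrublet marked 4 of 180 and 17 of 286 cycling cells, including 7 of 32 B cells, 3 of 8 pDC and 5 of 21 monocytes or macrophages at 12 h, against 4.49% and 6.01% of all kept cells.

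The sort fraction marked by the IL-22 reporter held few cycling cells, 4 of 289 at 0 h (1.38%, 0.378 to 3.51) and 2 of 1350 at 12 h (0.148%, 0.0179 to 0.534). The ratio between times was 0.107 (0.00968 to 0.747). The make-up of the fraction also differed between the times, since cells led by Lyz2 were 64.4% of it at 0 h and 88.4% at 12 h. None of the 27 T cells at 0 h or 16 at 12 h was cycling, which allows a share of up to 11.1% and 18.8% when the limit is set at 3 counts of the total, and of up to 12.8% and 20.6% by the Clopper-Pearson upper bound. Both cycling cells at 12 h were Lyz2 cells with 14 and 51 Lyz2 UMIs. Each had 2 UMIs of Mki67, none of the other 4 genes and none of the G2 and mitosis list. Among Lyz2 cells at 12 h, 2 of 1193 in the IL-22-positive library and 21 of 1174 in the IL-22-negative library were cycling, a ratio of 0.0937 (0.0107 to 0.383).

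The 4 IL-22-positive cycling cells at 0 h were of 4 kinds. The first had 51 UMIs of the 5 genes, 84 of the G2 and mitosis list, 9 UMIs of Cd3d and 2 of Trac, both part of the T cell receptor complex, and none of the 6 lineage genes. The second was a B cell with 31 UMIs of Cd79a, 21 of Cd79b and 12 of Ms4a1, 19 UMIs of the 5 genes and 60 of the list. The third was a plasma cell with 101 UMIs of Jchain and 72 of Mzb1, 6 UMIs of the 5 genes and a Scrublet call. The fourth was a Lyz2 cell with 29 UMIs of Ly6c2, 2 UMIs of Mki67 and none of the list. No Il22 UMI was found in any of the 6 cycling cells of this fraction.

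Cycling T cells were compared with other T cells in their subset markers and in their growth genes. The cells carrying CD4 or CD8 co-receptor genes were first counted as deposited. At 0 h 14 of 72 cycling T cells (19.4%) had Cd4 without Cd8a or Cd8b1, 23 (31.9%) had a Cd8 gene without Cd4, 4 had both and 31 (43.1%) had neither. At 12 h the same classes held 28 (20.1%), 56 (40.3%), 3 and 52 (37.4%) of 139. Among other T cells the Cd4 class was 11.6% and 9.75%, the Cd8 class 31.7% and 29.7%, and the class with neither 55.3% and 59.9%. Both co-receptors were therefore represented among dividing T cells. Cycling cells are deeper, and at 1000 UMIs Cd4 was found in 6 of 69 cycling and 106 of 1801 other T cells at 0 h (8.70% and 5.89%), the same order as before thinning. At 12 h it was found in 2 of 139 and 140 of 3005 (1.44% and 4.66%), the opposite order. Summed over cells, Cd4 stood at 47.4 and 65.8 CPM (UMIs of the gene per 1000000 UMIs summed) in cycling and other T cells at 0 h and at 42.3 and 46.2 at 12 h.

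Cd8b1, the CD8β chain, showed no difference beyond its intervals. At 1000 UMIs it was found in 17.4% (9.32 to 28.4) of cycling and 23.2% (21.2 to 25.2) of other T cells at 0 h, and in 33 of 139 (23.7%, 16.9 to 31.7) and 601 of 3005 (18.6% to 21.5%) at 12 h. Gzmk, a granzyme of memory CD8 T cells, was in 10.1% (4.18 to 19.8) of cycling and 3.22% (2.45 to 4.14) of other T cells at 0 h, and in 4.32% (1.60 to 9.16) and 2.50% (1.97 to 3.12) at 12 h. Its summed level was 110 against 34.7 CPM at 0 h and 76.8 against 33.0 at 12 h. Foxp3, the regulatory T cell factor, had a UMI in 5 of 72 cycling and 31 of 2096 other T cells at 0 h and in 7 of 139 and 49 of 3138 at 12 h. Put the other way, 5 of 36 Foxp3-positive T cells were cycling at 0 h (13.9%, 4.67 to 29.5) and 7 of 56 at 12 h (12.5%, 5.18 to 24.1), against 3.14% and 4.10% of T cells without a Foxp3 UMI. Il2ra, also a regulatory T cell marker, did not show this difference. Of Il2ra-positive T cells, 1 of 102 was cycling at 0 h (0.980%, 0.0248 to 5.34) and 9 of 193 at 12 h (4.66%, 2.15 to 8.67). T cells without an Il2ra UMI stood at 3.44% and 4.22%. At 1000 UMIs only 2 cycling T cells in each library kept a Foxp3 UMI, and 1 of 11 and 1 of 15 Foxp3-positive T cells stayed in the selection.

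Markers of innate-like T cells, which are frequent in the liver, were at lower or similar levels in dividing T cells. Cxcr6, a receptor of liver-resident lymphocytes, stood at 38.8 CPM in cycling and 125 in other T cells at 0 h and at 44.5 and 106 at 12 h. Klrb1c (NK1.1) stood at 32.3 and 161 CPM at 0 h and at 72.4 and 182 at 12 h. Zbtb16, which encodes PLZF, the factor of iNKT cells, had a UMI in 4 of 72 and 97 of 2096 T cells at 0 h and in 8 of 139 and 169 of 3138 at 12 h. Trdc, the γδ T cell receptor constant gene, was in 2 of 72 and 4 of 139 cycling T cells. Il22 and Il17a had no UMI in the cycling T cells of the IL-22-negative libraries.

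**Figure D3:**
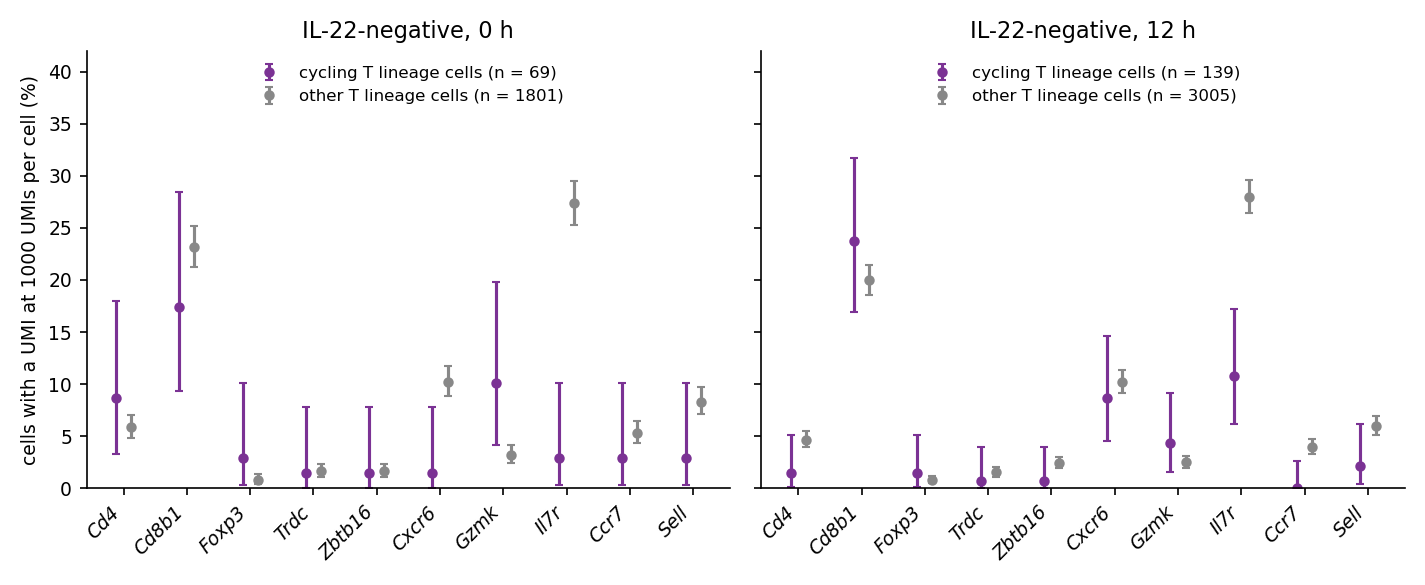
Share of IL-22-negative T cells with a UMI of each subset marker after thinning to 1000 UMIs, in percent, for cycling (purple) and other (grey) T cells at 0 h (left) and 12 h (right); points are 1 library each and bars are 95% Clopper-Pearson intervals. Il7r separates the 2 kinds of cell at both times, at 2.90% against 27.4% and 10.8% against 28.0%, whereas the Cd8b1 and Foxp3 intervals overlap.

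The list of naive and egress genes was lower in cycling than in other T cells. In sum it stood at 1179 CPM in cycling and 2740 in other T cells at 0 h, a ratio of 0.430 (0.394 to 0.469), and at 1333 and 2498 at 12 h, a ratio of 0.534 (0.503 to 0.566). Of its 7 genes, 4 at 0 h and 3 at 12 h were at or below 0.5-fold. Of all genes compared, 14.3% of 7104 at 0 h and 11.9% of 8027 at 12 h were as low, and 6.1% and 6.08% were 2-fold higher or more. Il7r, the receptor for the survival cytokine IL-7, stood at 99.2 against 407 CPM at 0 h, a ratio of 0.244 (0.178 to 0.326), and at 112 against 392 at 12 h, a ratio of 0.287 (0.233 to 0.350). Klf2, which maintains quiescence and the egress receptor S1pr1, stood at 746 against 1742 CPM and at 984 against 1652. S1pr1 itself was at 56.1 against 61.5 and at 44.5 against 56.5.

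The summed growth and glycolysis lists were higher in cycling than in other T cells, while their members differed in direction or size. The growth and nucleotide synthesis list had a ratio of sums of 3.09 (3.01 to 3.18) at 0 h and 3.17 (3.11 to 3.24) at 12 h, with 7 of 15 genes at least 2-fold higher at each time and 1 and 2 of 15 at or below 0.5-fold. It contains chromatin and tubulin genes that follow the cycle, such as Stmn1 at 707 against 18.7 CPM and Hmgb2 at 3094 against 412 CPM at 0 h. The median log2 ratio over the 15 genes was 0.997 at 0 h and 0.701 at 12 h. Some members did not share this order, with Npm1 at 1136 against 1178 CPM and Odc1 at 92.7 against 140 CPM at 0 h. Myc was at 12.9 against 30.1. Gapdh, a glycolytic enzyme, stood at 5353 against 2140 CPM at 0 h and at 5142 against 2321 at 12 h, and the glycolysis list had ratios of 2.04 (1.97 to 2.11) and 1.82 (1.77 to 1.87), with 2 of 11 and 2 of 12 genes 2-fold higher. Gapdh alone made up 5353 of the 7440 CPM of the glycolysis sum in cycling T cells at 0 h and 5142 of 7405 at 12 h.

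The cytotoxic and type 1 list had ratios of 0.925 (0.896 to 0.955) and 0.812 (0.792 to 0.831), and the activation list 0.677 (0.606 to 0.755) and 0.718 (0.660 to 0.780). Members of the type 1 list went both ways. Of its 12 genes, 2 were at least 2-fold higher and 4 at or below 0.5-fold at 0 h, and 1 and 2 at 12 h. Of the activation list, 2 of 11 genes at 0 h were at or below 0.5-fold. The cell cycle inhibitor and quiescence list had ratios of 0.486 (0.451 to 0.524) and 0.585 (0.556 to 0.616), with 4 of 9 and 3 of 9 genes at or below 0.5-fold. Its sum at 0 h was 1580 against 3248 CPM. Klf2, whose levels are given above, belongs to this list and to the naive and egress list, so the 2 sums are not separate results. Within the inhibitor list Btg1, an antiproliferative factor, stood at 149 against 453 CPM at 0 h, while Cdkn2d, a CDK4 and CDK6 inhibitor, stood at 209 against 75.2. The 2 list members thus lay on opposite sides.

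The genes with the highest ratios in cycling T cells outside the 5 were cell cycle genes, which the selection fixes. At 0 h Mxd3 had the highest ratio, 302 (79.6 to 2556) on 2 UMIs in other T cells, or 168 without its top cell. Pclaf, a PCNA-binding replication factor, followed at 824 against 6.75 CPM, a ratio of 122, and then Tk1, Spc24, Tpx2, Cenpf, Nusap1, Esco2, Clspn and Cdca8 from 111 down to 57.0. At 12 h Esco2, the cohesin acetyltransferase of S phase, had a ratio of 462 (124 to 3865), also on 2 UMIs in other T cells, or 292 without its top cell, followed by Cenpf, Hmmr, Spc24, Ccnb2, Tpx2, Cdkn3, Knl1, Pclaf and Nusap1 from 350 down to 139. The lowest at 0 h were Xcl1 (0.139), Bcl2 (0.183), Klrb1c (0.201), Il7r (0.244) and Txnip (0.256). At 12 h they were S100a8 and S100a9, 364 of whose 1084 and 311 of whose 920 UMIs in other T cells came from 1 cell, then Rflnb (0.167), Lyst (0.184) and Il7r (0.287).

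Dividing T cells carried more transcripts of several interferon-stimulated genes at 12 h than at 0 h, as other T cells did. Of 3044 genes compared in cycling T cells, 35 (1.15%) were at least 2-fold higher at 12 h and 31 (1.02%) at or below 0.5-fold. Of the 14 genes of the interferon response list, 7 had enough UMIs and 4 of them were at least 2-fold higher. Isg15, a ubiquitin-like protein, had 45 UMIs in 25 of 72 cells at 0 h and 336 UMIs in 52 of 139 at 12 h, or 97.0 and 374 CPM, a ratio of 3.86 (2.82 to 5.39). Irf7, the factor that amplifies interferon production, had a ratio of 3.21 (1.58 to 7.39), Rtp4 of 2.12 (1.29 to 3.65) and Zbp1, a sensor of nucleic acids, of 2.02 (1.28 to 3.31). Bst2 (tetherin) had a ratio of 1.67 (1.26 to 2.22), and Ifi27l2a stood at 1554 and 1920 CPM, a ratio of 1.23 (1.13 to 1.35).

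The median log2 ratio of the interferon list was 1.02 in cycling T cells and 1.09 in other T cells, where 8 of its 14 genes were at least 2-fold higher. The median over all genes compared in cycling T cells was -0.02. The sum of the list stood at 2102 CPM at 0 h and 3051 at 12 h in cycling T cells, a ratio of 1.45 (1.35 to 1.56), and at 1632 and 2511 in other T cells, a ratio of 1.54 (1.5 to 1.58). Isg15 had a ratio of 2.96 (2.74 to 3.20) in other T cells. The 2 kinds of cell come from the same libraries, so their ratios share whatever set the libraries apart.

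**Figure D4:**
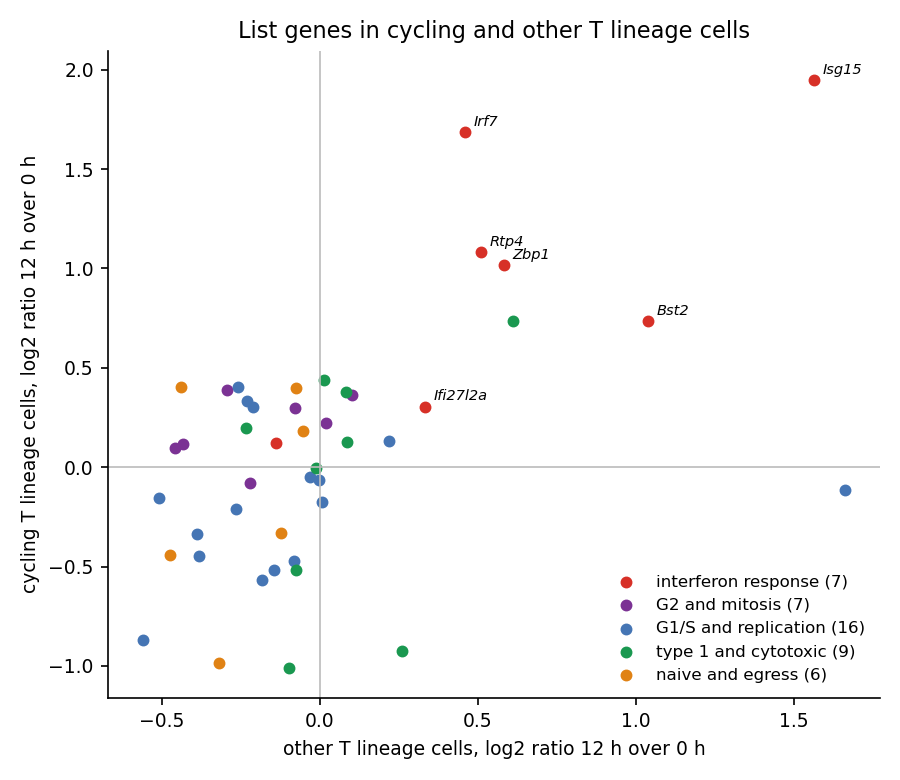
Log2 ratio of CPM at 12 h over 0 h for genes of 5 lists, in other T cells (horizontal) and cycling T cells (vertical) of the IL-22-negative fraction; each point is 1 gene from 1 library per time. Isg15 lies at the upper right (1.57 and 1.95), the interferon genes lie above 0 on the vertical axis, and the genes of the other lists lie on both sides of 0.

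Xcl1, a chemokine that attracts cross-presenting dendritic cells, was also higher in cycling T cells at 12 h. It had 19 UMIs in 14 of 72 cycling T cells at 0 h and 172 UMIs in 43 of 139 at 12 h, or 41.0 and 192 CPM, a ratio of 4.68 (2.90 to 7.96) and of 3.72 without the cell holding most of its UMIs. In other T cells the ratio was 1.42; the difference between the 2 ratios was not tested. Ifitm3 had a ratio of 6.79 (3.17 to 17.4), or 3.76 without its top cell, and Cxcl10 of 3.50 (1.99 to 6.65), or 2.36. Cd7 stood at 330 and 671 CPM, a ratio of 2.04 (1.70 to 2.45). Exosc3 and Apobec3 had ratios of 2.38 and 1.84. Gzmc, with the highest ratio of 27.6, had 102 of its 107 UMIs at 12 h in 1 cell and a ratio of 0.861 without it.

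On the lower side, Tnfrsf4 (OX40), a costimulatory receptor, had 57 UMIs in 15 of 72 cells at 0 h and 27 UMIs in 14 of 139 at 12 h. The ratio was 0.245 (0.149 to 0.393), 0.398 without its top cell, and 0.433 in other T cells. Bcl2a1d, an antiapoptotic factor, had a ratio of 0.432 (0.302 to 0.615) and Hist1h2bc of 0.430 (0.300 to 0.615). Hist1h2an had a ratio of 0.394, or 0.554 without its top cell. The class II genes H2-Aa, H2-Ab1, H2-Eb1 and their chaperone Cd74 had ratios of 0.305, 0.294, 0.285 and 0.350. A single cell at 0 h held most of these transcripts, 98 of 127 UMIs for H2-Aa. Without it the ratios were 1.34, 1.37, 0.800 and 0.973. Penk, which encodes proenkephalin, had 38 of its 50 UMIs at 0 h in 1 cell, and Gm42743 35 of 75; without it the ratios were 0.129 and 0.633. Of the type 1 list only Ccl4 was past the fold, at 589 and 292 CPM, a ratio of 0.496 (0.417 to 0.589).

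In the dividing T cells the G2 and mitosis list was higher at 12 h and the replication histones were lower, both by less than 2-fold. The G1/S list stood at 2555 CPM (2411 to 2705) at 0 h and 2400 (2299 to 2503) at 12 h, and the G2 and mitosis list at 3036 (2879 to 3198) and 3773 (3647 to 3902). The ratio for G2 and mitosis was 1.24 (1.17 to 1.32), with none of 19 genes 2-fold apart. The replication histones stood at 9829 and 8458 CPM, a ratio of 0.861 (0.829 to 0.893), and the G1/S list had a ratio of 0.939 (0.875 to 1.01). Since the selecting genes peak in G2, part of S phase lies outside the selection: of cells with 10 or more UMIs of the G1/S list, 34 of 99 at 0 h and 44 of 173 at 12 h were not among the cycling cells.

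In cycling plasma cells the lists with the largest ratios between the libraries were those of S phase. Of 1517 genes compared, 89 (5.87%) were at least 2-fold higher at 12 h and 43 (2.83%) at or below 0.5-fold, with a median log2 ratio over all genes of 0.17. With that median set to 0, 64 were higher and 54 lower. The G1/S list stood at 759 CPM (665 to 862) at 0 h and 1543 (1432 to 1659) at 12 h, a ratio of 2.03 (1.75 to 2.36), with 4 of 7 genes 2-fold higher. The replication histones stood at 1795 and 6429 CPM, a ratio of 3.58 (3.27 to 3.93), with 5 of 7. The G2 and mitosis list had a ratio of 1.47 (1.28 to 1.69), with 1 of 7. Among cells with 10 or more Jchain UMIs the ratios were 3.72 (3.04 to 4.59), 3.8 (3.45 to 4.2) and 1.55 (1.34 to 1.80). The cycling plasma cells also differed in their sums of the 5 genes, with 10 or more UMIs in 5 of 31 at 0 h and 16 of 33 at 12 h. In all IL-22-negative cells the histones stood at 23.3 UMIs per 10000 at sums of 3 to 9 and at 143 at 10 or more at 0 h. At 12 h these were 36.4 and 111. The list ratios were not taken at equal sums, and what the difference in sums contributes was not tested. The plasma cells outside the selection with as many Jchain UMIs had ratios of 1.30 (0.948 to 1.81) for G1/S and 0.893 (0.801 to 0.998) for histones. Those cells have fewer than 2 UMIs of the 5 genes, and their G1/S sums were only 84.2 and 109 CPM. The selection keeps them low, so their ratios are no contrast to those of the cycling cells.

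Rrm2, a subunit of the enzyme that makes deoxynucleotides, had 6 UMIs in 6 of 31 cycling plasma cells at 0 h and 68 UMIs in 20 of 33 at 12 h, a ratio of 7.52 (3.28 to 21.2). Hist1h2ap stood at 756 and 4024 CPM, a ratio of 5.32 (4.65 to 6.12). It was found in 24 of 31 and 27 of 33 cells, so the levels differed more than the number of cells with a UMI. H2afx, the histone variant phosphorylated at DNA breaks, had a ratio of 3.83 (2.54 to 6.0). Lmnb1 had 3.44, Gmnn, the inhibitor of origin relicensing, 3.21 and Spc24 of the kinetochore 3.10. Hist1h2ao, Hist1h2ae, Hist1h2ab and Snrnp27 had ratios from 4.28 down to 3.12. The near-identical histone genes share reads, so single members are uncertain.

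Lower at 12 h in cycling plasma cells were Irf4, the plasma cell transcription factor, at 154 and 64.0 CPM (ratio 0.415, 0.254 to 0.668) and Ppp1r15a of the stress response (0.401, 0.237 to 0.668). Herpud1, of endoplasmic reticulum quality control, had a ratio of 0.271, or 0.506 without its top cell. Nucb1, Bnip3l, Ypel3, Ikzf3 and Plac8 had ratios from 0.375 to 0.473, and from 0.514 to 0.703 without the top cell of each. Gzma and Nkg7, genes of cytotoxic lymphocytes, had ratios of 0.113 and 0.345, and of 0.697 and 0.719 without the top cell, which held 103 of 123 Gzma UMIs at 0 h.

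Igha was the most frequent leading heavy chain gene of the dividing plasma cells. These cells were chosen by Jchain, the joining chain of IgA and IgM, and whether that choice favours IgA over IgG cells was not tested. In all cycling cells led by Jchain, Igha led in 18 of 31 at 0 h (58.1%, 39.1 to 75.5) and 19 of 33 at 12 h (57.6%, 39.2 to 74.5). Among cycling cells with 10 or more Jchain UMIs, Igha had the most UMIs of the heavy chain genes in 16 of 23 at 0 h (69.6%, 47.1 to 86.8) and in 19 of 28 at 12 h (67.9%, 47.6 to 84.1). Ighg2b led in 6 and 4 cells, Ighg1 in 1 and 2, and Ighg2c in 0 and 3. Among plasma cells outside the selection with as many Jchain UMIs, Igha led in 31 of 63 at 0 h (49.2%, 36.4 to 62.1) and 78 of 112 at 12 h (69.6%, 60.2 to 78.0), and Ighg2b in 27 and 9. At 12 h the dividing and other plasma cells thus had the same leading isotype in similar shares. The cell with the most UMIs of the 5 genes at 0 h was a plasma cell, with 72, of which 52 were Ube2c, and with 336 UMIs of Jchain and 93 of Igha. Epcam, an epithelial adhesion gene, had a UMI in 12 of 31 and 11 of 33 cycling plasma cells while the keratin and claudin genes named above were at 0.

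**Figure D5:**
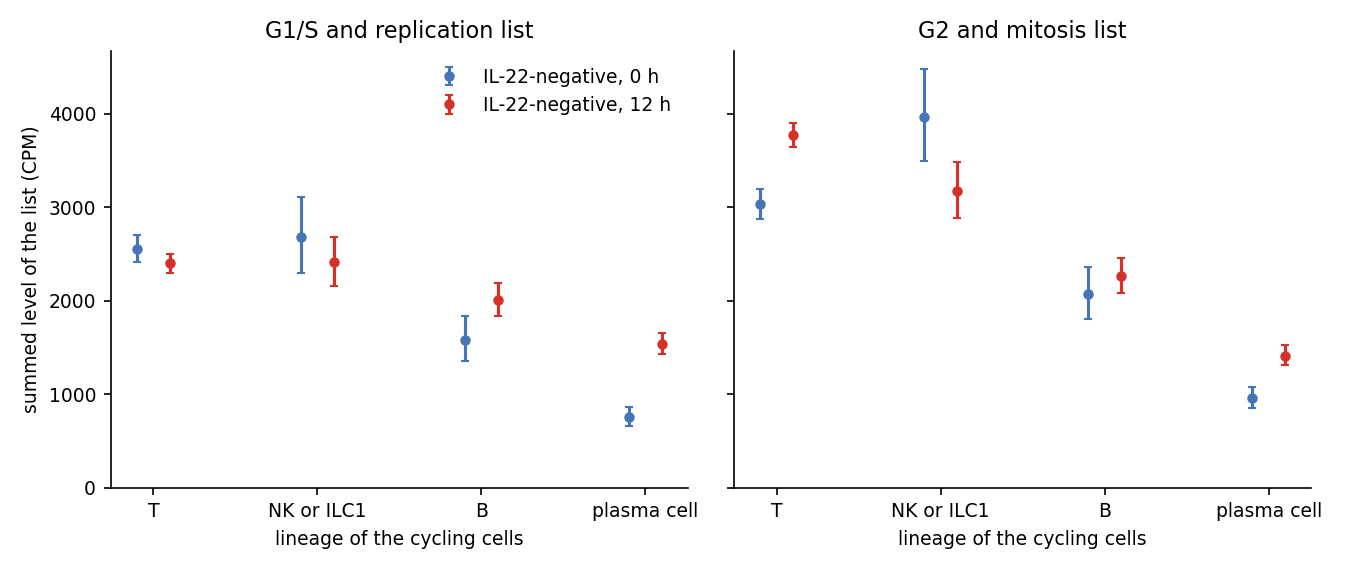
Summed CPM of the G1/S and replication list (left) and the G2 and mitosis list (right) in cycling IL-22-negative cells by lineage at 0 h (blue) and 12 h (red); points are 1 library each and bars are 95% exact Poisson intervals. Plasma cells have the lowest sums of the 4 lineages plotted in both panels and their G1/S sum goes from 759 to 1543, while in T cells it stays at 2555 and 2400.

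Across lineages, cycling NK cells or ILC1 had the highest G2 and mitosis sum at 0 h, 3964 CPM (3490 to 4484), and 3179 (2891 to 3487) at 12 h. Cycling pDC had G1/S sums of 2355 and 2876 CPM with G2 and mitosis sums of 1264 and 1134, over 5 and 8 cells. In B cells the G1/S sum was 1582 at 0 h and 2007 at 12 h, over 27 and 32 cells. The sums are over different genes, so they are read across lineages and not against each other.

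Among cycling NK cells or ILC1, Gzma (granzyme A) had a UMI in 11 of 12 at 0 h and 18 of 22 at 12 h, at 10669 and 13795 CPM, close to the 11054 and 10282 CPM of the other cells of the lineage. Eomes, a factor of conventional NK cells, had a UMI in 6 of 12 and 8 of 22, against 47 of 387 and 87 of 688 of the shallower other cells. At 1000 UMIs it was in 1 of 11 and 2 of 22 against 24 of 316 and 45 of 631. Cxcr6, found on ILC1, had a UMI in 4 of 12 and 2 of 22. Klrb1c stood at 517 and 661 CPM in cycling and at 1061 and 1058 in other cells of the lineage, so the NK1.1 transcript was lower per UMI in dividing cells at both times.

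At 12 h some of the dividing B cells carried germinal centre genes; these cells were singled out after their values had been seen. Mef2b, a factor upstream of Bcl6, had 37 UMIs in 6 of 32 cycling B cells at 12 h, while 15 of 2308 others had a UMI, and Rgs13 was in 3 of 32 against 5 of 2308. At 1000 UMIs Mef2b was in 4 of 31 against 5 of 2183. At 0 h neither gene had a UMI in the 27 cycling B cells, which were shallower, with a median of 2896 UMIs against 7682 at 12 h, and of which 15 sat at the threshold of 2 UMIs. Bcl6 had none at either time. Mzb1 was in 24 of the 32 cycling B cells at 12 h and 14 of 27 at 0 h, and at 1000 UMIs in 32.3% and 32.0%.

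The 21 dividing monocytes or macrophages at 12 h were described by monocyte, macrophage and progenitor genes. Ly6c2 was in 13 of 21, Ccr2, the chemokine receptor by which monocytes leave the bone marrow, in 11, and Csf1r in 9, against 58.9%, 65.4% and 40.6% of the other cells of the lineage. At 1000 UMIs Csf1r was in 0 of 20 against 13.9% and Ly6c2 in 10 of 20 against 40.6%. C1qa, a complement gene of resident macrophages, was in 3 of 21. These 3 were among the 57 cells with 2 or more C1qa UMIs at 12 h, of which 5.26% (1.10 to 14.6) were cycling. One of the 3 had 16 Lyz2 and 12 Cd79a UMIs, another had 17 Lyz2, 4 Cd3e, 7 Cd3d and 4 Gzmb UMIs, and the last had 50 Lyz2 UMIs and only 2 UMIs of the 5 genes. None of the 3 was a Scrublet call. Of progenitor genes, Prtn3 was in 6 of 21 and Cd34 in 3 of 21, against 17.5% and 1.47% of the others, while Mpo and Ctsg had no UMI. Cells with 10 or more UMIs of S100a8, a neutrophil gene, included 1 cycling cell of 9 at 0 h and 3 of 215 at 12 h, each with 2 to 4 UMIs of the 5 genes.

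Basophils appeared only as a few cells, also singled out after their values had been seen. At 12 h 4 cells had 10 or more UMIs of Mcpt8, a basophil protease, and 2 of them were cycling, with 164 and 151 UMIs of Mcpt8, 24 and 13 of Ctsg, 1 and 5 of Gata2, and 2 and 9 of Cpa3. Their sums of the 5 genes were 17 and 8, and neither had a UMI of the 6 lineage genes. At 0 h no cell had 10 Mcpt8 UMIs. Among cycling pDC, Ccr9 was in 1 of 5 at 0 h and 6 of 8 at 12 h, against 73.1% and 74.7% of other pDC, and 3 of those 8 were Scrublet calls.

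The highest sums at 12 h were those of a T cell with 114 UMIs of the 5 genes, of which 67 were Ube2c and 26 Birc5, of a cell with 67, and of a cell with 62 and 188 UMIs of Gzma that tied between Cd3e and Lyz2 at 1 UMI each. The cell with 67 was counted as a B cell on 10 Cd79a against 7 Cd3e UMIs, but also had 31 UMIs of Cd8b1, 15 of Cd3d and 6 of Siglech, and was not a Scrublet call. Single cells of this kind show that the lineage of the deepest cells can rest on a few UMIs.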

How the data were processed

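The 4 deposited matrices hold UMI counts as whole numbers per gene and barcode. Cell Ranger 4.0.0 is the version per the file headers, whereas Cell Ranger 3.0.1 and mm10 are given per the submitters' processing notes; the chemistry was Single Cell 3' v2 per the labels' protocols. The authors' cell filters and any doublet removal are not given in the sources used here.

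Barcodes were filtered, selected and given a lineage as stated in the report, and UMIs were summed per library, lineage and class and divided to CPM. Genes were compared with at least 50 UMIs over both sums; past the fold means a ratio of at least 2 or at most 0.5. A sum of 0 was set to a floor of 3 UMIs. Thinning drew 1000 UMIs per cell with seed 1. Scrublet, run through scanpy 1.11.5, marked doublets per library but none were removed in the main values; its automatic threshold marked 1 cell in the IL-22-negative library at 12 h, so the 0 h threshold was used there. With 1 library per group no test was made; Clopper-Pearson and conditional Poisson intervals at 95% came from scipy 1.17.1. The calculations were tested on simulated counts.

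The genes named are, of those with at least 100 CPM in the higher sum, the 10 highest and 10 lowest ratios of 12 h over 0 h and the 10 highest and 5 lowest of cycling over other cells, leaving out mitochondrial, ribosomal protein, antigen receptor segment, sex-linked and hepatocyte genes, plus the members of the lists of cycle, growth, glycolysis, quiescence, naive and egress, activation, type 1 and interferon genes. The members and lists were chosen with earlier results of these data known, and the germinal centre, NK subset, myeloid, immunoglobulin and pan-leukocyte genes and the single cells described were chosen after their values had been seen. Alternatives were other thresholds, lineage rules, filters, thinning and leaving out doublet calls or the top cell. A few genes that the naming rule covers are not reported here.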

Additional observations from a re-analysis of the deposited data

Results flagged for a closer look

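The share of cycling cells at 12 h over 0 h lay on opposite sides of 1 in the 2 sort fractions, at 1.31 in the IL-22-negative fraction and 0.107 in the IL-22-positive fraction. The first ratio rests on 286 and 180 cycling cells and the second on 2 and 4. The difference between the fractions was not tested, since each group has 1 library. Of the 6 IL-22-positive cells, 3 carried exactly 2 UMIs, all of Mki67.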

How the results depend on the processing

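Alternatives gave 318 values in all; of those on the main results 115 stayed within the main value's counting interval, or within 1.5 times a main count of genes, 21 moved further, and 3 crossed 1 where the main interval had excluded it. Ratios whose interval included 1 also crossed it: monocytes or macrophages had 0.920 after thinning and 0.731 at 1 or more UMIs, B cells 0.998 after thinning and 0.897 with only 1 lineage gene detected, NK cells or ILC1 from 0.725 to 0.986 under 4 alternatives, and pDC 0.642 at 1 or more UMIs and 0.945 without Scrublet calls. At 1 or more UMIs the IL-22-negative ratio was 0.894 and the B cell ratio 0.689. With 5 other cycle genes the ratios were 2.23 for all IL-22-negative cells, 1.89 for T cells, 3.17 for B cells and 3.08 for plasma cells. At 10 or more UMIs, added after seeing the data, they were 2.08 for all, 2.69 for B cells and 5.22 for plasma cells. The plasma cell ratio at 10 or more Jchain UMIs, also added then, was 0.748. The IL-22-positive ratio was 0 at 3 or more UMIs, at 10 or more and after thinning, with 0 cycling cells at 12 h. With genes of 20 or more UMIs, 164 were higher and 199 lower in cycling T cells and 226 and 131 in plasma cells, and 690 were higher in cycling over other T cells at 0 h. In plasma cells with only 1 lineage gene detected 4 were higher and 3 lower, and 45 and 24 without the cell holding most UMIs of each gene. After thinning, the cycling over other ratio at 12 h was 0.309 for Cd4, 0.296 for Zbtb16 and 0.470 for Trdc, and at 0 h it was 0.775 for the Cd8 genes (0.940 with only Cd3e detected) and 0.870 for Zbtb16, all crossing 1. Without the top cell Gzmc turned to 0.861, H2-Ab1 to 1.37 and H2-Aa to 1.34. The causes were not tested. Monocytes or macrophages at 10 or more UMIs and pDC after thinning had 0 cycling cells at 0 h, so no ratio was formed. No paired analysis was possible because each group has 1 library and the labels carry no replicate number.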
